A study of Mus musculus with 30 samples.

Results

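The replication-dependent histone genes are the clustered genes that encode the histone proteins packed onto newly made DNA. They were chosen by name: every gene whose symbol begins with Hist1h, Hist2h, Hist3h or Hist4h followed by the number of a histone class. The rule found 71 of the 46078 genes counted in each library, without use of any measured value. By their symbols, 6 belong to the linker histone H1, and 20, 20, 12 and 13 to the core histones H2A, H2B, H3 and H4. The GENCODE M21 annotation gives 67 of the 71 as protein coding. Hist1h2al and Hist3h2bb-ps are processed pseudogenes there, Hist1h2aj is an unprocessed pseudogene, and the gene of the symbol Hist2h2bb with the ID ENSMUSG00000050936 is a long noncoding RNA. The Hist1 cluster on chromosome 13 held 56 of the genes, the Hist2 cluster on chromosome 3 held 11, the Hist3 cluster on chromosome 11 held 3, and Hist4h4 was the only one on chromosome 6.

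RNA-seq was performed on colon tissue of 30 C57BL/6J mice, 6 in each of 5 groups. The groups were females and males fed a control diet (CD), females and males fed a high-fat diet (HFD), and HFD males injected with estradiol (E2). All mice were on their diet for 13 weeks, starting at an age of 5 to 6 weeks. In the last 3 weeks the E2 group received 9 intraperitoneal injections of 0.5 mg/kg body weight, and the other 4 groups received vehicle. The females kept their ovaries, no female and no CD group was given E2, and every mouse carried the same wild-type background. Each mouse gave 1 library, and the number of reads counted on genes ranged from 8667177 to 17243712 per library (median 11530916). Of 6 genes that mark colon epithelium, a list made after the data were seen, 5 were found in 30 of 30 libraries. The goblet cell mucin gene Muc2 ranged from 1210 to 3161 TPM (a level per length of the gene, with equal totals for all libraries), the chloride transporter gene Slc26a3 from 107 to 503, the carbonic anhydrase gene Car1 from 59.1 to 1002, the keratin gene Krt20 from 38.3 to 96.4 and the villin gene Vil1 from 110 to 181. The intestinal transcription factor gene Cdx2 did not pass 1.09 TPM in any library, and its median was 0.114. Whether reads were counted on the strand that the stranded kit marks is not given in the sources used here, which bears on this value and on pairs of genes that overlap on opposite strands. In tissue RNA, fewer cells of a type and less RNA per cell cannot be told apart.

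Cells in S phase need as much histone as DNA, and they make it from these genes. H2A, H2B, H3 and H4 form the core around which DNA is wound, while H1 binds the linker between cores. Nearly all of these genes lack introns, and their mRNAs normally end in a conserved stem-loop instead of a poly(A) tail. The stem-loop is bound by SLBP, which carries the mRNA through processing, translation and its rapid loss at the end of S phase. Libraries made by removal of ribosomal RNA, as here, keep RNAs without a poly(A) tail, so these mRNAs can be measured next to polyadenylated ones. In the colon, dividing cells lie at the base of the crypts, and differentiated cells line the surface.

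The stem-loop is the shared sequence of the group, and its forms are shown because they follow the histone classes. A search for the histone stem-loop, on the strand of the gene and with a few positions free to vary, found a match in 5 forms. The match lay in the full annotated transcripts (GENCODE M21, GRCm38) of 42 of the 71 genes. Among the 55379 other annotated genes, 6 held a match (0.0108%). The forms are written 5′ to 3′ as DNA, all in capitals because the whole run is the motif.
Form found in 26 genes of H1, H2A, H2B and H3: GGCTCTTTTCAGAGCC
Form found in 7 genes, all H4: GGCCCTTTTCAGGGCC
Form found in 6 genes of H1, H2B and H3: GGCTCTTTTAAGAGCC
Form found in 2 genes, both H4: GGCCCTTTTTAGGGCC
Form found in 1 gene, the H2A gene Hist2h2ac: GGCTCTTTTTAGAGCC
Both forms with a GGCCC stem were found in H4 genes alone, and the forms with a GGCTC stem in none of them. The poly(A) signal AATAAA lay in the last 50 bases of 15 of the 71 annotated transcripts. Hist2h2be, a gene for H2B that is described below, was 1 of these 15 and held no match to the stem-loop. Its annotated extent of chr3:96221119-96223738, on the plus strand, is 2620 bases long. The median over the 71 transcripts was 477 bases after trimming to the gene extents in the deposited files. The lack of a match says only that these letters were not found in the annotated transcript.

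The promoters also differed in their letters by class. RefSeq promoters of 300 bases (GRCm38.p6, 250 bases before to 50 after the start of the gene) were matched for 63 of the 71 genes. They were searched on both strands, and a motif may overlap another. The octamer ATTTGCAT, known from H2B promoters, was found in 7 of 17 H2B and 7 of 18 H2A promoters and in no promoter of the other classes, against 1.75% of 27025 RefSeq promoters. The letters GGTCCG, known from H4 promoters, lay in 11 of 12 H4 promoters, 1 of 17 H2B and 1 of 10 H3 promoters, against 8.39% of all promoters. The letters AAACACA, known from H1 promoters, lay in 5 of 6 H1 promoters, against 7.14% of all. CCAAT was found in 54 of the 63 promoters and in 3 of 12 for H4, against 37.9% of all, and TATAAA in 35 of 63, against 14.2%. Promoters of 3 genes are shown, each 5′ to 3′ on the strand of its gene, with these motifs in capitals: the most abundant H4 gene, an abundant H1 gene, and the H2A gene that shares its start region with Hist2h2be.
Hist1h4d, chr13:23581318-23581617, plus strand: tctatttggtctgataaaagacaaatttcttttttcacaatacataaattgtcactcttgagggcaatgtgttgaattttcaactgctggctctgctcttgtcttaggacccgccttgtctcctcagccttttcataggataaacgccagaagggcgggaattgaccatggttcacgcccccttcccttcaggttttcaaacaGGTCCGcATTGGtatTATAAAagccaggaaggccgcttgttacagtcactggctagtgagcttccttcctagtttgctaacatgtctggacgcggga
Hist1h1e, chr13:23622509-23622808, minus strand: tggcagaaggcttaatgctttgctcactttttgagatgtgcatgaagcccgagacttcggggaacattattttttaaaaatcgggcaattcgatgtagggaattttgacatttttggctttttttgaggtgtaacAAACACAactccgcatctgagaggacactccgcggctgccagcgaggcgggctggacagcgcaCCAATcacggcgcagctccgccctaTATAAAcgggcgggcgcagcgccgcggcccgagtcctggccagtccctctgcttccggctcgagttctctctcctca
Hist2h2ac, chr3:96220831-96221130, minus strand: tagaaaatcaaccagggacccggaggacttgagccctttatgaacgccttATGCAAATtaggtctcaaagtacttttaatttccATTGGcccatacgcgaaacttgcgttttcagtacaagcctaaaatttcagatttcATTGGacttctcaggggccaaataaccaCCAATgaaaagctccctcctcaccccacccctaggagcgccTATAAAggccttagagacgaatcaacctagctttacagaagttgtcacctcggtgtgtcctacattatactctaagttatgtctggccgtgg
The Hist1h4d promoter held the H4 letters, the reverse complement of CCAAT and the TATA letters, and the Hist1h1e promoter held the H1 letters with CCAAT and the TATA letters. The Hist2h2ac promoter held the octamer on its opposite strand and the TATA letters, and its window runs into the first bases of Hist2h2be, which is read away from it on the other strand. No RefSeq promoter entry was matched to Hist2h2be. A match of letters is a description and not a site of binding.

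Because these genes resemble each other, their levels rest on how reads were shared out among copies. Over the 71 genes, a median of 63.5% of the 51-base windows (the read length) of a transcript, trimmed as above, occurred unchanged in another gene. This share was 4.21% for H1, 81.4% for H2A, 56.7% for H2B, 70.7% for H3 and 40.1% for H4. Counts and TPM values parted for some of the genes, and the 12 genes with under 1 count on average had a median share of 93.1%. No read was counted in any of the 30 libraries for 7 of them, whose median share was 93.1% too. In all, 5 genes reached at least 5 TPM on average but under 30 counts in the 30 libraries together, some of them among those 7. Hist2h2aa2, a gene for H2A whose windows were all shared, had a mean of 21.4 TPM against a mean count of 0.6. Hist1h2al reached 10.6 TPM with a mean count of 0.367, and Hist2h2aa1, Hist1h2ap and Hist1h2ao reached 9.02, 6.98 and 6.98 TPM with no count. At the other end, no window of Hist1h1a, Hist1h1b or Hist2h2be occurred in another gene. At least 10 counts in each of the 30 libraries were found for 17 of the 71 genes, and values of the genes with high shares, H2A above all, are uncertain as to which copy they belong to.

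**Figure D1:**
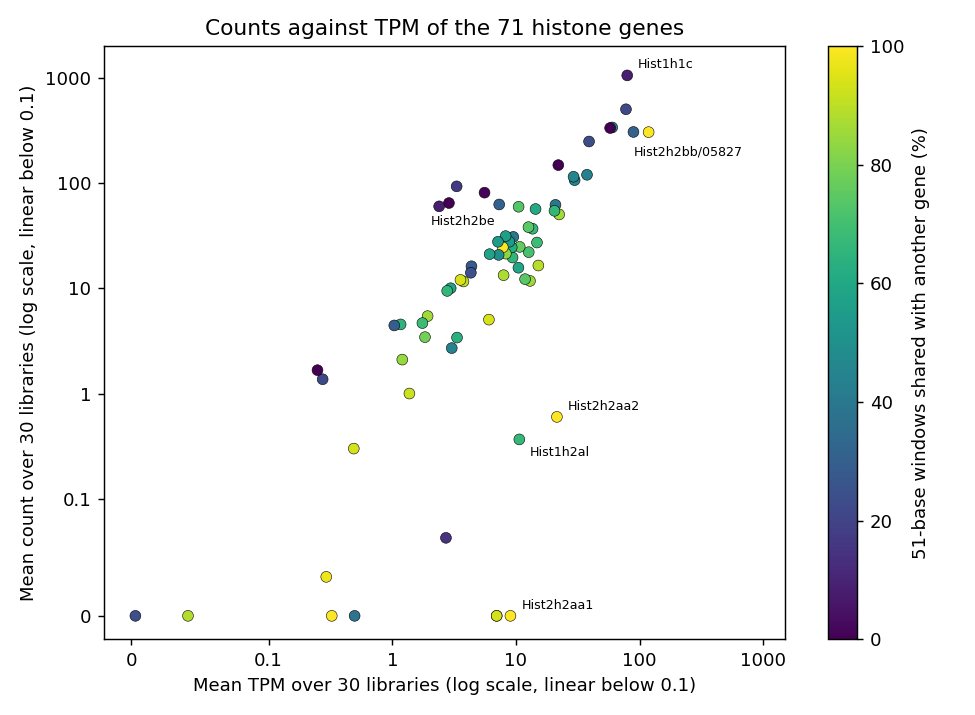
Mean count against mean TPM of each of the 71 genes over the 30 libraries, both on log scales that are linear below 0.1, with color for the percent of 51-base windows shared with another gene. Hist2h2aa2, Hist1h2al and Hist2h2aa1 lie far below the other genes of like TPM, at mean counts of 0.6, 0.367 and 0.

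The colon expressed most of these genes at a low to moderate level. On the TPM scale, which is per length, the mean over the 30 libraries was at least 50 for 6 genes, from 20 to under 50 for 9, from 10 to under 20 for 12, from 1 to under 10 for 36 and under 1 for 8. The 12 most abundant genes made up 64.6% of the summed TPM of the 71 genes on average (53.4 to 80.5% per library). H2B genes gave on average 32.3% of the sum, H1 genes 27.4%, H4 genes 22.8%, H3 genes 8.79% and H2A genes 8.72%.

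Among the core histone genes, the highest mean belonged to an H2B gene with the symbol Hist2h2bb (ENSMUSG00000105827, chr3:96269752-96270132, plus strand) at 118 TPM. It ranged from 65.1 to 184 TPM in CD females (median 111) and from 80.6 to 315 in CD males (median 119). The HFD females spanned 71.1 to 247 (median 101), the HFD males 90.7 to 190 (median 107) and the E2 group 50.8 to 112 (median 94.4). The 5 ranges overlapped. This gene lies inside another annotated gene of the same symbol and all of its windows were shared, so the level cannot be assigned to 1 of them. Hist1h2bc, Hist1h2bb and Hist1h2bn followed among the H2B genes, with means of 59.99, 29.2 and 22.4 TPM. The H4 genes, which all encode the same small protein, were led by Hist1h4d with a mean of 89.1 TPM. Hist1h4d ranged from 42.1 to 141 TPM in CD females (median 86.1) and from 43.5 to 152 in CD males (median 98.1). The HFD females spanned 17.9 to 247 (median 81.1), the HFD males 12.3 to 221 (median 70.1) and the E2 group 23.2 to 147 (median 51.6). Its spread within each HFD group of 6 mice was wider than any difference between the group medians. Hist1h4c and Hist1h4h reached means of 37.5 and 29.8 TPM.

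Of the linker histone genes, which encode the proteins between nucleosome cores, 5 were among the 12 most abundant. Hist1h1c, Hist1h1e, Hist1h1a, Hist1h1d and Hist1h1b had means of 79.3, 77.5, 57.7, 39.0 and 21.99 TPM. Hist1h1e, for example, ranged from 50.8 to 88.0 TPM in CD females (median 69.2) and from 61.5 to 110 in CD males (median 93.7). The HFD females spanned 57.0 to 157 (median 65.0), the HFD males 48.7 to 104 (median 87.1) and the E2 group 43.1 to 87.8 (median 65.0). Its highest value over all 30 libraries was 3.65 times the lowest, against 20.2 times for Hist1h4d. The histone genes known from the testis were near the bottom of the range, with means of 0.248 TPM for Hist1h1t, 0.496 for Hist1h2ba and 0.00306 for Hist1h2aa, which was above 0 in 1 library alone.

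**Figure D2:**
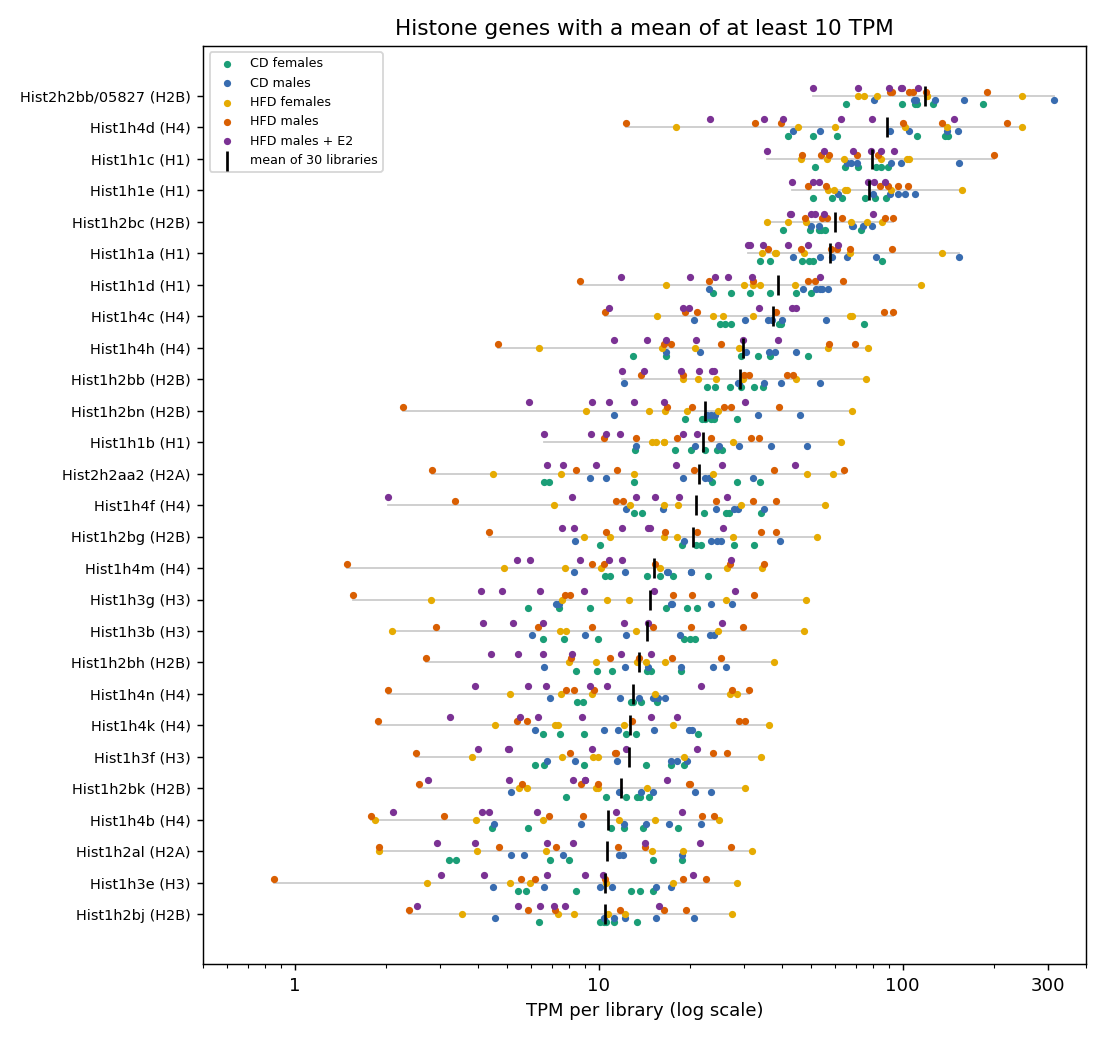
TPM (log scale) of the 27 genes that averaged at least 10 TPM, in each of the 30 libraries, colored by group, with a black bar for the mean of all libraries and a grey line for the full range. The 5 groups overlap for every gene shown, and the H4 gene Hist1h4d runs from 12.3 to 247 TPM while the H1 gene Hist1h1e runs from 43.1 to 157.

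Summed over the 71 genes, the level was 1005 ± 198 TPM (mean ± SD, n = 6) in CD females, 1211 ± 338 in CD males, 1174 ± 752 in HFD females, 1094 ± 542 in HFD males and 806 ± 329 in the E2 group. The sums ranged from 750 to 1193 TPM in CD females (median 1057) and from 660 to 1686 in CD males (median 1214). The HFD females spanned 531 to 2585 (median 866), the HFD males 413 to 1788 (median 1001) and the E2 group 496 to 1415 (median 746). All 5 ranges overlapped, and the SD was larger in both vehicle-treated HFD groups than in the CD groups of the same sex. HFD female replicate 3 stood apart with the highest sum of all libraries, and HFD male replicate 1 had the lowest. The H4 sum ranged from 71.8 to 644 TPM in the HFD females and 46.5 to 584 in the HFD males, against 146 to 393 and 144 to 380 in CD females and CD males. The H1 sum ran from 203 to 576 TPM in the HFD females and 151 to 468 in the HFD males. These sums are descriptions, and no test was made on them.

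**Figure D3:**
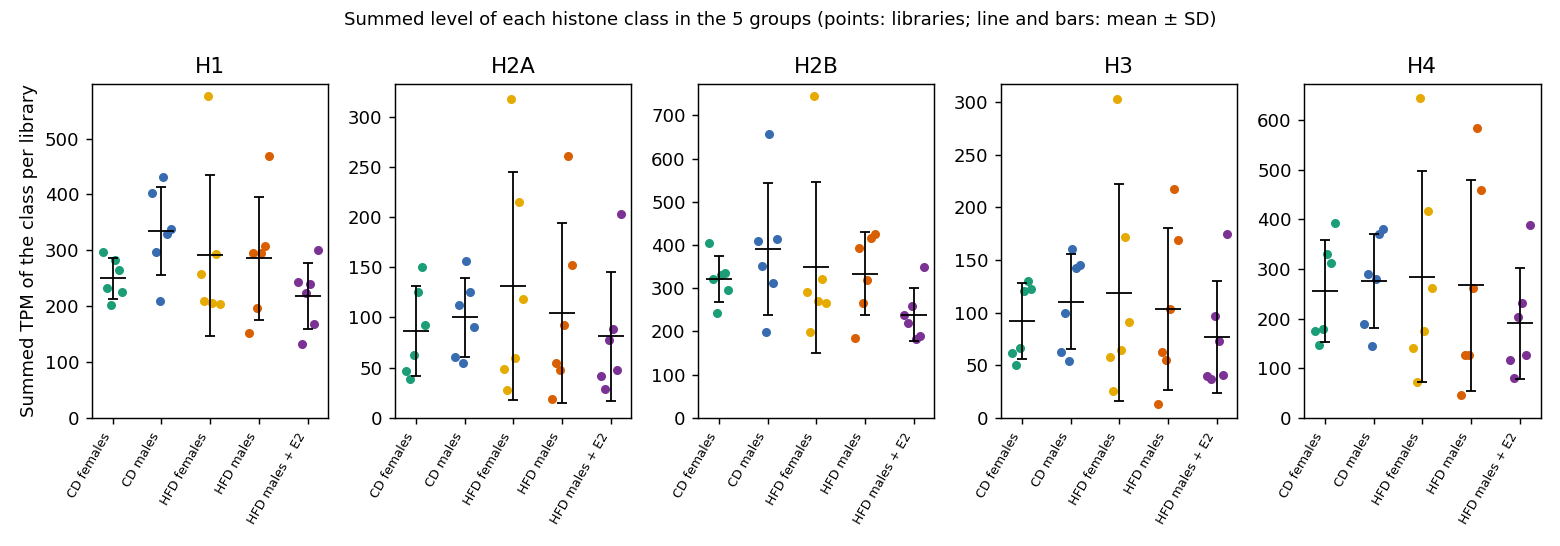
Summed TPM of the genes of each histone class in each library (points), by group, with the mean ± SD of 6 mice. HFD female replicate 3 is the highest point for all 5 classes, with 576 TPM for H1 and 744 for H2B.

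To ask whether sex changed the histone genes, females were compared with males on each diet. On CD, no gene of the 45 tested passed the threshold of the study (an unadjusted p below 0.05 with an absolute log2 fold change above 0.4, edgeR), while 9.15% of the 14922 genes tested did. The Benjamini-Hochberg adjusted threshold of 0.05 was passed by 0 of the 45, against 2.92% of all genes, and 0 of the 45 had an unadjusted p under 0.05, against 14.8%. DESeq2 called 0 as well. The median log2 fold change was -0.06 for the histone genes and 0.01 for all genes tested, with 19 higher and 26 lower in females. The 5 linker histone genes tested were all lower in females in value, from -0.47 to -0.17 on the log2 scale, without passing the test. The median was -0.23 without CD male replicate 3 and turned to between 0.01 and 0.05 without CD female replicate 2 or 3 or CD male replicate 4 or 6. Smooth muscle marker genes moved with the sex on CD. Of 21 tested, 20 were lower in females at the threshold of the study, against 6.21% of all genes. Their summed level was 4229 to 6433 TPM in CD females against 6636 to 10590 in CD males. With the smooth muscle score as a covariate, 3 of 45 histone genes were called, against 16.3% of all genes, and 1 passed the adjusted threshold. The smooth muscle sums of the sexes did not overlap, so this fit can hardly tell score and sex apart. Marker genes of B cells and lymphoid follicles moved with the sex as well. Of 17 tested, 7 were higher in females, against 2.94% of all genes. Their sum was 31.2 to 117 TPM in CD females and 11.95 to 95.4 in CD males. With their score as a covariate the median of the histone genes was -0.32, 40 of 45 values were negative, and 2 genes were called lower, against 3.63% of all genes. With the sample number, which is described below, as a covariate the median was 0.14.

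On HFD, 1 of 45 genes tested passed the threshold, Hist2h2be, which was lower in females, while 3.09% of 15179 genes passed it in either direction and 1.08% were lower. It was also the only one of the 45 with an unadjusted p under 0.05, against 5.09% of all genes, and 0 passed the adjusted threshold (edgeR), against 0.0988%. The median was 0.19 on the log2 scale for the histone genes and 0.01 for all genes, with 32 higher and 13 lower. This median rests on HFD female replicate 3 and was -0.27 without it, and it was -0.05 without HFD male replicate 1 and 0.51 without HFD male replicate 5. Squamous epithelium marker genes were uneven in these groups, with a sum of 57.1 to 2821 TPM (median 1240) in HFD females and 61.9 to 887 (79.3) in HFD males. Of 22 tested, 3 were higher in females, against 2.01% of all genes. Part of this list was measured in every library of all 5 groups, with a lowest sum of 43.6 TPM. With the squamous score as a covariate the count stayed at 1, while the median turned to -0.15, with 11 higher and 34 lower.

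HFD was compared with CD in each sex to ask how diet changed these genes. In females, 1 of 46 genes tested passed the threshold, again Hist2h2be, which was lower on HFD, against 3.67% of 15061 genes in either direction and 0.724% that were lower. In males, 0 of 45 passed it, against 2.90% of 14991 genes, 0 had an unadjusted p under 0.05, against 6.03%, and DESeq2 called 0. In females 1 of 46 had an unadjusted p under 0.05, against 5.68% of all genes. The adjusted threshold was passed by 0 histone genes in either sex (edgeR), against 0.0199% of all genes in females and 0.00% in males. The median log2 fold changes were 0.08 in females, with 31 higher and 15 lower, and -0.13 in males, with 18 higher and 27 lower. Without HFD female replicate 3 the median in females was -0.36, and 4 genes (Hist1h2bf, Hist1h2bm, Hist1h2bn and Hist2h2be) were called lower, against 0.733% of all genes in that fit. The median also lay just below 0 without CD female replicate 2 or 3 or HFD female replicate 5. Squamous markers moved with the diet in females. Of the 25 listed, 7 were tested and 5 of these were higher on HFD, against 2.95% of all genes. Their sum was 53.6 to 101 TPM in CD females and 57.1 to 2821 (median 1240) in HFD females. With the squamous score as a covariate the median of the histone genes was -0.60, 43 of 46 values were negative, and 4 genes were called lower, against 0.949% of all genes. The score was above the CD range in most HFD females, so this fit can tell score and diet apart only in part. With the smooth muscle score the median was -0.40. In males the values ran from -0.70 to 0.39 on the log2 scale without passing the test, and the median was 0.05 without HFD male replicate 1, -0.41 without HFD male replicate 5 and 0.07 with the sample number as a covariate. When the diet effects of the sexes were compared with an interaction term, 1 of 48 genes tested passed the threshold, against 5.18% of 15800 genes in either direction and 1.47% with a negative value, and it was Hist2h2be. It was the only one with an unadjusted p under 0.05, against 6.75% of all genes, and 0 passed the adjusted threshold (edgeR), against 0.00%. The median of the interaction over the histone genes was 0.15, against 0.01 for all genes. It turned to -0.31, with 32 of 48 values negative, without HFD female replicate 3, to -0.08 without HFD male replicate 1, to -0.10 with the sample number as a covariate and to -0.25 with the smooth muscle score, and it was 0.56 without HFD male replicate 5.

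E2 was compared with vehicle in HFD males to ask what estrogen changed in the obese colon, and here the histone genes lay mostly below 0. Of 39 genes tested, 37 had a lower value after E2 and 2 a higher one, with a median log2 fold change of -0.35 against 0.00 for all genes tested. The genes share their samples, and the direction was not a test result for any gene but Hist2h2be, which passed the threshold as 1 of 39, against 5.87% of 15010 genes in either direction and 3.24% that were lower. It was also the only one with an unadjusted p under 0.05, against 10.2% of all genes, and 0 passed the adjusted threshold (edgeR), against 0.00666%. The medians by class were -0.33 for H1, -0.26 for the 3 H2A genes tested, -0.55 for H2B, -0.31 for H3 and -0.44 for H4. The next genes by p were the linker histone genes Hist1h1b, at -0.65 (SE 0.31, p = 0.0504 by edgeR and 0.117 by exact permutation), and Hist1h1a, at -0.40 (SE 0.23, p = 0.0954 by edgeR and 0.212 by exact permutation). The count depended on single mice: it was 11 without HFD male replicate 1, the library with the lowest histone sum, against 2.52% of all genes called lower in that fit, and 0 without HFD male replicate 2 or 5 or E2 replicate 3 or 4. The median was -0.07 without HFD male replicate 5, -0.58 without HFD male replicate 1 and -0.73 without E2 replicate 6. Of the 25 squamous markers, only 6 were tested for E2, and 3 of these were lower, against 3.24% of all genes. The sum of the list was 43.6 to 84.5 TPM in the E2 group. With the squamous score as a covariate 0 histone genes were called, against 3.24% of all genes in that fit. The E2 group had higher sample numbers than the HFD males, with means of 119 and 114. With the sample number as a covariate the median was -0.58, 38 of 39 values were negative, and 6 genes were called lower (Hist1h1b, Hist1h2bf, Hist1h2bj, Hist1h4b, Hist1h4h and Hist1h4k), against 2.04% of all genes. A correction for the GC content of genes, added after the data were seen, called 7 genes lower, among them Hist1h1a, Hist1h1b and Hist1h4k but not Hist2h2be, against 2.50% of all genes.

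Other genes of the cell cycle were compared from lists chosen with earlier results of these data known. Of all 15010 genes tested for E2, 5.87% passed the threshold of the study in either direction and 3.24% were lower. Mitosis genes were lower after E2: 19 of 20 passed the threshold of the study, with a median log2 fold change of -0.68, and 0 passed the adjusted one. Examples were the cyclin gene Ccnb1 at -1.26 (SE 0.32), the spindle motor gene Kif11 at -1.03 (SE 0.18) and the topoisomerase gene Top2a at -0.85 (SE 0.20). The summed level of the 20 genes ranged from 81.4 to 152 TPM in the E2 group (median 126) and from 152 to 344 in HFD males (218). Of the 37 genes of DNA replication, which like the histone genes act in S phase, 5 were called lower and none higher, with a median of -0.16. The cyclin gene Ccna2 fell by 0.80 on the log2 scale (SE 0.21), and the ribonucleotide reductase gene Rrm2 by 0.70 (SE 0.31). Among 18 genes that process or transcribe histone mRNA, such as Slbp and Npat, none passed the threshold. From a list of genes for histone variants outside the clusters, 10 were tested. Of these, Cenpa, the centromere histone, fell by 0.95 (SE 0.22), and H1f0, a linker histone of differentiated cells, fell by 0.49 (SE 0.19). H2afy2, a macroH2A gene, rose by 0.80 (SE 0.35). Of 21 genes for histone chaperones, the acetyltransferase gene Hat1 alone passed, at -0.53 (SE 0.20), which is close to the share of all genes.

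Hist2h2be was the only histone gene past the threshold in the main edgeR fits of the comparisons between groups. The lack of a stem-loop match does not set it apart, since a match was found in only 10 of the 20 H2B genes. For E2, DESeq2 called Hist1h1b as well, and edgeR with all 30 libraries in 1 fit called Hist1h2ab as well. Its level ranged from 1.96 to 4.70 TPM in CD females (median 3.18) and from 2.42 to 4.05 in CD males (median 2.71). The HFD females spanned 1.56 to 3.49 (median 2.26), the HFD males 2.76 to 4.81 (median 3.26) and the E2 group 1.63 to 3.36 (median 2.34). HFD males had the highest median, and each of the other groups overlapped with them. On HFD, females were lower than males by a log2 fold change of -0.56 (SE 0.19, p = 0.0112, adjusted p = 0.872, edgeR, and p = 0.0173 by exact two-sided permutation). In females, HFD was lower than CD by -0.56 (SE 0.20, p = 0.0117, adjusted p = 0.598, edgeR, and p = 0.0281 by exact permutation), and it missed the threshold with limma on log2(TPM + 0.1) and on log2(TPM + 1), at -0.46 and -0.34. In HFD males, E2 was lower than vehicle by -0.44 (SE 0.19, p = 0.0369, adjusted p = 0.476, edgeR, and p = 0.0368 by exact permutation). The smallest p that the permutation of 6 against 6 mice can give is 0.00216. The interaction of sex and diet had a value of -0.83 (SE 0.25, adjusted p = 0.551, edgeR). In these 4 comparisons Hist2h2be was the 1 gene called of 45, 46, 39 and 48 histone genes tested. The shares of all genes called were 3.09%, 3.67%, 5.87% and 5.18%. These comparisons share libraries: HFD females enter both the sex and the diet comparison, and HFD males both the sex and the E2 comparison. The E2 difference missed the threshold in 6 of 12 fits that left out 1 mouse, with values from -0.53 to -0.34, and after either GC correction (-0.35 and -0.36). It also missed it with the B cell score (-0.39), the squamous score (-0.32) or the sample number (-0.39) as a covariate, which makes 5 of 13 other settings. Its neighbour Hist2h2ac, which is read from the same start region in the opposite direction, ranged from 0.760 to 15.8 TPM in HFD males and from 2.35 to 17.0 in HFD females. It passed in none of the main fits between groups. On CD, Hist2h2ac was called higher in females with the sample number as a covariate, with the replicate number as a block or without CD female replicate 2. In those fits 3.11 to 3.63% of all genes were called higher.

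The largest pattern in the histone genes followed the number of the sample and not the group. The labels number the 30 samples from 101 to 130. The sources used here do not say what the number stands for, and the pattern was tested after it had been seen. The samples of each group were spread over the numbers, least so in HFD females (105 to 122), with mean numbers of 113 in CD females, 119 in CD males, 114 in HFD females, 114 in HFD males and 119 in the E2 group. In an edgeR fit of group and sample number to all 30 libraries, 25 of 48 histone genes tested rose with the number at an adjusted p under 0.05 and 0 fell, against 7.12% of 16060 genes that rose and 6.23% that fell, or 13.3% in all. The median change from number 101 to 130 was 1.62 on the log2 scale for the histone genes and -0.02 for all genes, and 44 of 48 values were positive.

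The change differed between classes in these counts. It was called for 11 of 13 H4 genes, 6 of 9 H3 genes, 4 of 8 H2A genes, 3 of 13 H2B genes and 1 of 5 H1 genes. The medians were 1.95, 2.05, 1.88, 1.10 and 0.48 on the log2 scale. Hist1h4k, an H4 gene, had the smallest p, with a change of 2.46 over the range (SE 0.49, adjusted p = 0.00419, edgeR). In the first 10 samples, numbers 101 to 110, it ranged from 1.88 to 10.4 TPM (median 6.44), in numbers 111 to 120 from 3.24 to 36.5 (11.9), and in numbers 121 to 130 from 5.52 to 30.2 (19.0). The lowest and the highest 10 samples overlapped in part. Hist1h4d rose by 2.66 (SE 0.58, adjusted p = 0.00668, edgeR), and its median went from 41.0 TPM in the first 10 samples to 103 and then 137. Hist1h4h rose by 2.43 (SE 0.49, adjusted p = 0.00452, edgeR), with medians of 16.3, 29.3 and 38.5 TPM. The linker histone gene Hist1h1e rose less, by 0.84 (SE 0.27, adjusted p = 0.0404, edgeR). The value was -0.01 (SE 0.39) for Hist1h1a and -0.01 (SE 0.46) for Hist2h2bb (ENSMUSG00000105827), and neither passed the test. Hist2h2be had the lowest value of the 48, -0.32 (SE 0.20, adjusted p = 0.285, edgeR).

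**Figure D4:**
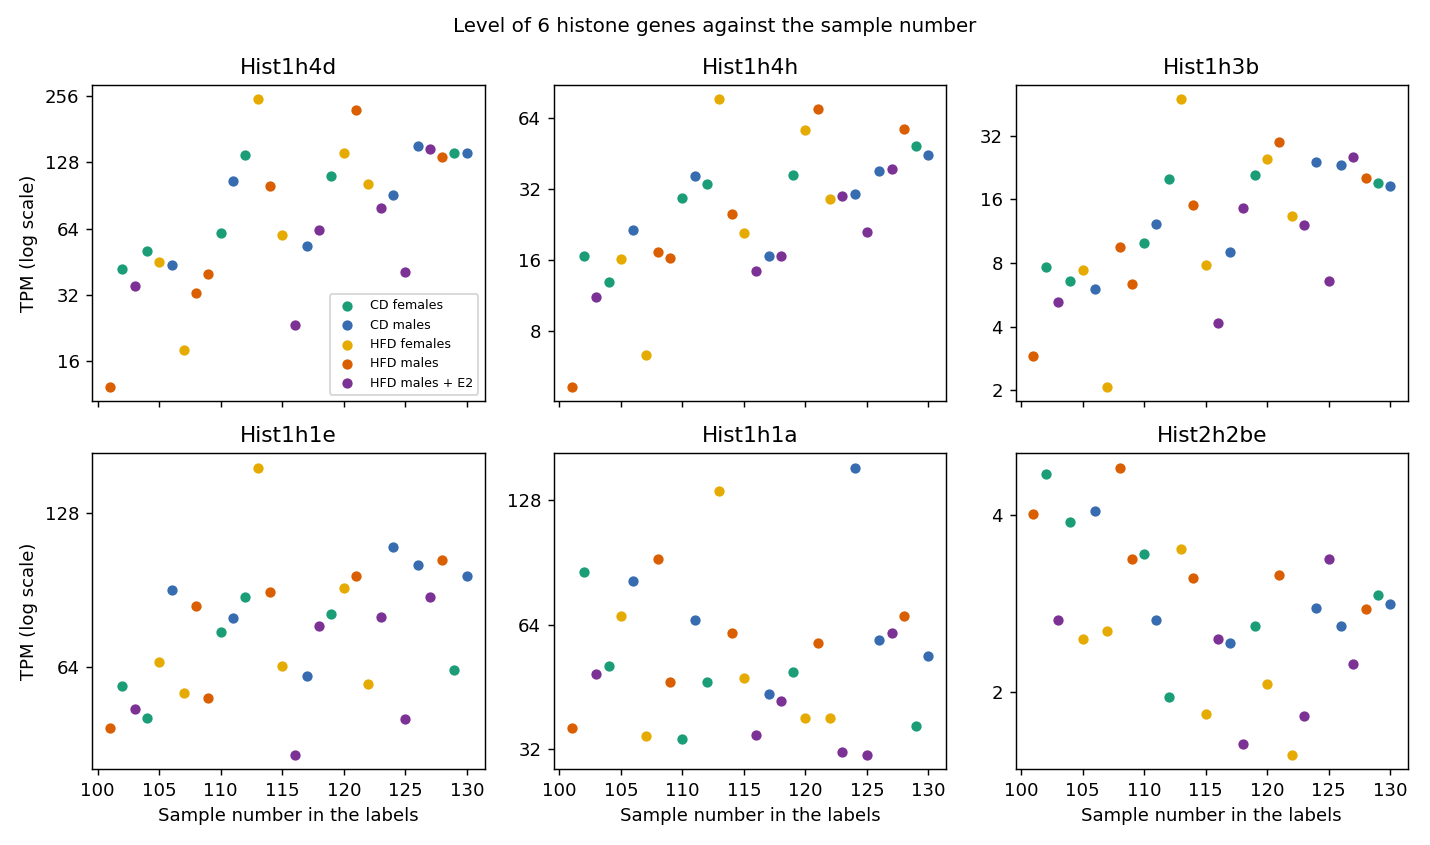
TPM (log scale) of 6 histone genes against the sample number in the labels, 1 point per library, colored by group. Hist1h4d, Hist1h4h, Hist1h3b and Hist1h1e are higher at high numbers, with medians for Hist1h4d of 41.0 TPM in numbers 101 to 110 and 137 in numbers 121 to 130, while Hist1h1a and Hist2h2be did not pass the test.

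Within single groups of 6 mice the values pointed the same way, but few passed. The slope was positive for 27 of 33 genes tested in CD females, 26 of 29 in CD males, 24 of 27 in HFD females, 15 of 17 in HFD males and 17 of 21 in the E2 group. The genes share the 6 libraries of their group, so these are not counts of independent values. The share of positive slopes over all genes is not given here. The adjusted threshold was passed by 7 of 17 genes in HFD males, where 6.49% of all genes rose, and by 0 in each of the other groups, where at most 0.140% of all genes passed it. In those groups 12, 6, 1 and 7 had an unadjusted p under 0.05 in CD females, CD males, HFD females and the E2 group (edgeR). The share of all genes under that p within single groups is not given here, so these counts have no background. Over all 30 libraries it was 29.6% of 16060 genes, against 35 of 48 histone genes. Of 17 genes tested in all 5 groups, 10 had a positive slope in each, among them all 8 that rose over the 30 libraries. Those 8 were picked by the fit to the same libraries, so their agreement within groups is no separate support. Leaving out HFD male replicate 1, sample 101 with the lowest histone sum, lowered the count from 25 to 12, and the share of all genes that rose from 7.12% to 3.41%.

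Few genes of S phase and mitosis changed along the sample number, where 7.12% of all genes rose and 6.23% fell. Of 37 replication genes, only Pold1, for a DNA polymerase subunit, passed and rose (1.19 over the range), and the median of the list was -0.18. Of 20 mitosis genes, only Ccnb1 changed, by -0.997, and the list had a median of -0.27. The summed level of the replication genes had medians of 260, 218 and 224 TPM in numbers 101 to 110, 111 to 120 and 121 to 130, and that of the H4 genes 133, 276 and 376. The H3 sum had medians of 56.3, 101 and 143 TPM and the H2A sum 47.1, 103 and 122, while the H1 sum went from 238 to 273 and 304 and the H2B sum from 278 to 320 and 330. Among the histone mRNA processing genes, Srrt and Upf1 rose by 0.47 and 0.59, and the others, Slbp among them, did not pass.

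GC content moved with the sample number over all genes, and these histone genes are rich in GC. The genes that rose had a median GC content of 57.8%, those that fell 46.2%, and all tested genes 50.1%. Of the quartile of genes with the highest GC content, 23.7% rose, against 0.225% of the quartile with the lowest, and 28 of the tested histone genes were in the highest quartile. With a correction for GC content in the fit, added after the data were seen, 15 of 46 histone genes rose, against 1.91% of all genes, and 0 fell. With GC content and length corrected together the count was 15 as well, against 1.81%. Hist1h4d, Hist1h4h and Hist1h4k were among the 15 in both fits, and Hist1h1e was not. The stem-loop was found in 17 of the 25 genes that rose and in 13 of the 23 tested genes that did not pass.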

How the data were processed

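Total RNA of mouse colon was depleted of ribosomal RNA, and stranded libraries were read in pairs of 51 bases. The authors mapped the reads to GRCm38 with STAR and deposited whole-number counts per gene from featureCounts, without normalization, for 46078 genes. The authors also deposited TPM values from StringTie, which are scaled to gene length and to the total of the library. The submitters' processing notes also name bcl2fastq 2.19.1.403 and Trim Galore. How reads that fit several genes were treated is not given in the sources used here, and this can move counts between gene copies. TPM values were summed by gene ID, and the counts of 30 of 30 libraries matched the TPM values of the same library best. No replicates were duplicates: the lowest chi-square per degree of freedom between replicates was 7.79. Sequenced reads had no molecular identifiers, and 3 counts equal 0.174 to 0.346 CPM.

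Counts of all genes in the libraries compared were fitted in R 4.3.3 with edgeR 4.0.16 (filterByExpr, TMM, robust quasi-likelihood F-test), and p-values were adjusted over all genes tested. The threshold of the study was a reading of its methods: an unadjusted p below 0.05 with an absolute log2 fold change above 0.4. For single genes, log2 CPM (prior count 2) was permuted over the mice in an exact two-sided test. TPM was compared between genes, and on the scale of log2(TPM + 0.1) or log2(TPM + 1) with limma 3.58.1 for genes with a mean over 0.1 TPM as an alternative. The fits recovered known changes in simulated data. These were planted in well-counted genes of a single dispersion and were larger than those of the histone genes between groups. The simulation does not bear on smaller changes, on genes with few counts or on a wider spread between mice.

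The genes named are the 12 with the highest mean TPM, those past a threshold, the testis genes Hist1h1t, Hist1h2aa and Hist1h2ba, and up to 4 per list. Members, lists and the rule were chosen with earlier results of these data known. The tests of the sample number and of GC content were added after the data were seen. Alternatives were DESeq2 1.42.0, its size factors, no filter, all 30 libraries in 1 fit, the replicate block, marker scores as covariates and each library left out. Hist1h2bh and Hist1h2bm had no GC value and were left out of the GC fits.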

Additional observations from a re-analysis of the deposited data

Results flagged for a closer look

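Values of 6 mice were checked for a sample far from the rest in 105 groups, and 19 were found. The rule flags about 1 in 20 groups of independent, normally distributed values. These groups share libraries, and sums hold their own genes, so the 19 cannot be set against that rate. HFD female replicate 3 accounted for 8 of the 19. This library had 576 TPM for the summed H1 genes (the other 5 mice 203 to 294) and 744 for the summed H2B genes (198 to 322). It also had 247 TPM for Hist2h2bb (ENSMUSG00000105827), 157 for Hist1h1e, 135 for Hist1h1a, 115 for Hist1h1d, 68.0 for Hist1h2bn and 62.8 for Hist1h1b.

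CD male replicate 4 was high for Hist2h2bb (ENSMUSG00000105827) at 315 TPM and for Hist1h1a at 154 TPM. E2 replicate 6 was high for the summed H2A genes at 204 TPM and for Hist1h2bc at 79.7 TPM. HFD male replicate 6 had 200 TPM (199.5) of Hist1h1c against 46.8 to 83.2 in the other 5 mice, and HFD male replicate 2 had 190 TPM (190.3) of Hist2h2bb (ENSMUSG00000105827). Hist1h1a was at 85.8 TPM in CD female replicate 1, Hist1h4c at 74.4 in CD female replicate 6 and Hist2h2be at 4.05 in CD male replicate 1. Hist1h1d was low in CD male replicate 3, at 23.0 TPM. Hist1h1t was at 0.461 TPM in CD female replicate 2 and at 0 in the other CD females.

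The interaction of sex and diet for Hist2h2be was -0.83 on the log2 scale (unadjusted p = 0.00279, adjusted p = 0.551, edgeR). It passed the threshold of the study alone, as 1 of 48 histone genes, against 5.18% of all genes. Hist2h2be was lower on HFD in females (-0.56) and had a value of 0.26 in males that did not pass.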

How the results depend on the processing

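The threshold of the study was passed by 0 histone genes on CD for sex. This count was 1 without a filter, with the squamous epithelium score, with the sample number or on log2(TPM + 1), 2 on log2(TPM + 0.1) or with the B cell score, and 3 with the smooth muscle score, where 1 also passed the adjusted threshold. In these fits 45 to 68 histone genes were tested, and 5.67 to 16.3% of all genes were called. The count for HFD against CD in females was 4 in place of 1 without a filter (of 64 tested) or with the squamous score (of 46). The shares of all genes were 5.34% and 2.01%. The interaction gave 2 of 64 without a filter, against 5.21%. The count for E2 was 2 by DESeq2 or with all 30 libraries in 1 fit, 3 without a filter, 4 on either TPM scale, 0 with the squamous score, 6 with the sample number and 7 with either GC correction. In these E2 fits 37 to 69 histone genes were tested, and 3.24 to 8.57% of all genes were called. The cause of the shifts in count was not tested. Genes rising with the sample number were 15 in place of 25 with either GC correction and 7 in HFD males alone, with 0 in each of the other 4 groups alone. They were 29 of 48 by DESeq2, 18 of 64 without a filter and 34 of 69 on log2(TPM + 0.1), against 8.85%, 2.74% and 2.03% of all genes.

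Leaving out 1 library gave 0 to 3 genes for sex on CD (1 without CD female replicate 1 or 2, 3 without CD male replicate 3), 1 for sex on HFD, and 1 to 4 for HFD in females (4 without HFD female replicate 3). For HFD in males it gave 0 to 3 (1 without CD male replicate 1 or HFD male replicate 3 or 6, 3 without HFD male replicate 5). For E2 it gave 0 to 11: 0 without E2 replicate 3 or 4 or HFD male replicate 2 or 5, 2, 3 and 11 without HFD male replicate 4, 3 and 1, and 4 without E2 replicate 6. The interaction stayed at 1, and the sample number gave 12 (without HFD male replicate 1) to 32 (without HFD female replicate 3, where 7.37% of all genes rose). Of all genes, 8.17% were called for sex on CD without CD male replicate 3. The share was 3.96% for HFD in males without HFD male replicate 5 and 5.84% for E2 without E2 replicate 6. In all of these fits of group comparisons 0 histone genes passed the adjusted threshold. Of 315 values of called single genes over the alternatives, 250 kept their side of the threshold, 65 missed it, and none changed sign. Of 160 medians, which have no threshold, 24 changed sign: 7 for HFD in females, 2 for HFD in males, 5 and 4 for sex on CD and on HFD, 6 for the interaction and 0 for E2.

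Same-numbered replicates were not taken as pairs, since no comparison had all 6 correlations of their deviations from the group means over 0.1: it was 5 of 6 for sex on CD and for diet in males, 3 for diet in females and for E2, and 2 for sex on HFD. The replicate numbers follow the sample numbers within each group. With the replicate number as a block, 1 histone gene was called for sex on CD (Hist2h2ac), against 10.3% of all genes. The count was 3 for HFD against CD in males, against 3.72%, and the block moved no other count by over 1.5 times. Over the 5 comparisons the correlations of same-numbered pairs ran from -0.22 to 0.47, and no comparison had each sample best correlated with its own number. Genes with few counts limit the depth, and 17 of the 71 had at least 10 counts in every library.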
